A study of Mus musculus with 35 samples.

Results

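The miR-29 family was measured in the livers of mice given a single dose of the alkylating mutagen N-ethyl-N-nitrosourea (ENU). Its members were taken by name from the 376 miRNA assays of a real-time PCR array: every assay with the miRNA number 29 was kept, which gave 3 assays, miR-29a, miR-29b and miR-29c, and no star form. Female Big Blue mice, 6 months old, received 120 mg/kg ENU or its solvent dimethylsulfoxide by intraperitoneal injection. The livers of 5 ENU mice each were taken 1, 3, 7 and 15 days after treatment, and those of 4 each after 30 and 120 days, and these post-treatment days are called PTDs. The labels place 3 of the 7 solvent controls at day 1 and 4 at day 30, while the study's Methods give 4 and 3, so the day of a control is named here only as its label. No control was labelled for the other days. All 35 mice, controls included, carried the Big Blue transgene, a shuttle vector for scoring mutations, and each mouse gave 1 array. The arrays were run in 3 periods: period 1 held the controls labelled day 1, 4 of the 5 PTD 1 mice and all mice of PTDs 3, 7 and 15, period 2 held 2 controls labelled day 30, the fourth PTD 1 mouse and all mice of PTDs 30 and 120, and period 3 held the other 2 controls labelled day 30. The 2 sets of controls share no run period, so their label and their run period cannot be told apart.

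miRNAs of the miR-29 family base-pair through their seed with messenger RNAs and lower their output. The best known targets are the fibrillar collagens and other matrix genes, and in liver the family is known as an anti-fibrotic set that falls when stellate cells are activated. It is also known to activate p53, a transcription factor switched on after DNA damage, by lowering the regulatory subunit of phosphoinositide 3-kinase and the GTPase CDC42.

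The mature sequences are shown because the 3 assays have to tell apart RNAs that differ at few positions. They are the 3' arm products of RefSeq (build GRCm38.p6), to which the older assay names without an arm were matched, and the seed (bases 2 to 8) is in capitals:
mmu-miR-29a: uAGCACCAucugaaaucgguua
mmu-miR-29b: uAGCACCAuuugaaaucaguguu
mmu-miR-29c: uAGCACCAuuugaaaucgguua
The seed was the same in all 3, and of 1679 mature mouse miRNAs in the RefSeq table these 3 alone held it. Counted from 1 at the 5' end, miR-29a and miR-29c were identical at 21 of 22 positions, the difference being C10U (miR-29a first). From miR-29b to miR-29c the differences were A18G, G21U and U22A, and miR-29b had 1 base more at its 3' end. The genes lie in 2 pairs. The miR-29a sequence is at chr6:31062673-31062694 and the first copy of miR-29b at chr6:31063025-31063047, both on the minus strand, in hairpin genes 275 bases apart that overlap no other listed gene. The second copy of miR-29b is at chr1:195037091-195037113 and miR-29c at chr1:195037600-195037621, both on the plus strand, in hairpin genes 426 bases apart that lie within the span of the long noncoding RNA gene A330023F24Rik. A mature miR-29b assay cannot tell its 2 genes apart, and cross-reaction between the assays was not tested.

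All 3 members were detected in every liver. The Ct of a well is the cycle where its signal crosses the threshold, and it is lower where there is more RNA. miR-29a had a mean Ct of 18.9 over the 35 arrays and was the 14th lowest of the 376 assays, miR-29c had 19.8 and was the 27th, and miR-29b had 24.7 and was the 80th. Assays can differ in efficiency, so this order is that of the wells. miR-122, the defining miRNA of hepatocytes, had the lowest mean Ct of all, 14.5, while the muscle, pancreas and neuron markers had mean Cts of 28.6 to 34.2. In whole liver, fewer cells of a type and less RNA per cell cannot be told apart.

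Levels are given as -ΔCt, the mean Ct of the 4 reference RNAs (snoRNA251, snoRNA202, snoRNA142 and U6) minus the Ct of the miRNA, so that 1 unit is a doubling. miR-29a stood at 2.30, 1.78 and 1.79 in the controls labelled day 1 and at 3.73, 3.33, 2.94 and 2.94 in those labelled day 30. The 2 sets of controls did not overlap. In the ENU mice miR-29a was 2.11, 1.08, 1.84, 2.61 and 3.38 at PTD 1 and 3.07, 3.89, 3.67, 3.95 and 3.24 at PTD 3. It was 3.57, 3.09, 3.52, 3.12 and 3.76 at PTD 7, and 3.28, 3.24, 3.62, 3.14 and 3.33 at PTD 15. At PTD 30 it was 3.47, 3.61, 3.93 and 2.54, and at PTD 120 it was 2.54, 3.66, 3.16 and 3.62. From PTD 3 to PTD 120 all 23 ENU livers, at 2.54 to 3.95, thus lay above all 3 controls labelled day 1, as held for 9.29% of the 366 miRNAs with a value in every one of these arrays, and around those labelled day 30. Of the 5 PTD 1 livers, 4 lay below all controls labelled day 30, where at least 4 did so for 41.8% of 371 such miRNAs.

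miR-29c, which differs from miR-29a by the single base shown above, had a similar layout. Its -ΔCt was 1.61, 1.21 and 1.08 in the controls labelled day 1 and 2.79, 2.73, 1.89 and 1.70 in those labelled day 30, again without overlap. It was 1.49, 0.22, 1.21, 1.90 and 2.68 at PTD 1, and 2.46, 3.19, 2.19, 2.70 and 2.17 at PTD 3. The fourth and the fifth PTD 1 mouse lay within the range of the controls labelled day 30, where for miR-29a only the fifth did. At PTDs 7 and 15 it ranged from 1.89 to 2.49, at PTD 30 from 1.90 to 3.29 and at PTD 120 from 1.69 to 2.90. The lowest miR-29c level of all 35 livers was that of the second PTD 1 mouse, which also had the lowest miR-29a level.

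miR-29b lay far lower and was more scattered. It was -2.68, -3.86 and -4.17 in the controls labelled day 1 and -2.68, -3.25, -2.65 and -1.66 in those labelled day 30, so the control sets overlapped. It was -3.90, -4.14, -3.60, -3.86 and -2.11 at PTD 1, and -2.73, -2.12, -2.56, -1.48 and -2.99 at PTD 3. At PTD 7 it ranged from -3.37 to -2.17, at PTD 15 from -2.86 to -1.83, at PTD 30 from -2.66 to -1.38 and at PTD 120 from -3.17 to -1.56. The fifth PTD 1 mouse, at -2.11, stood apart from the other 4 of its group.

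**Figure D1:**
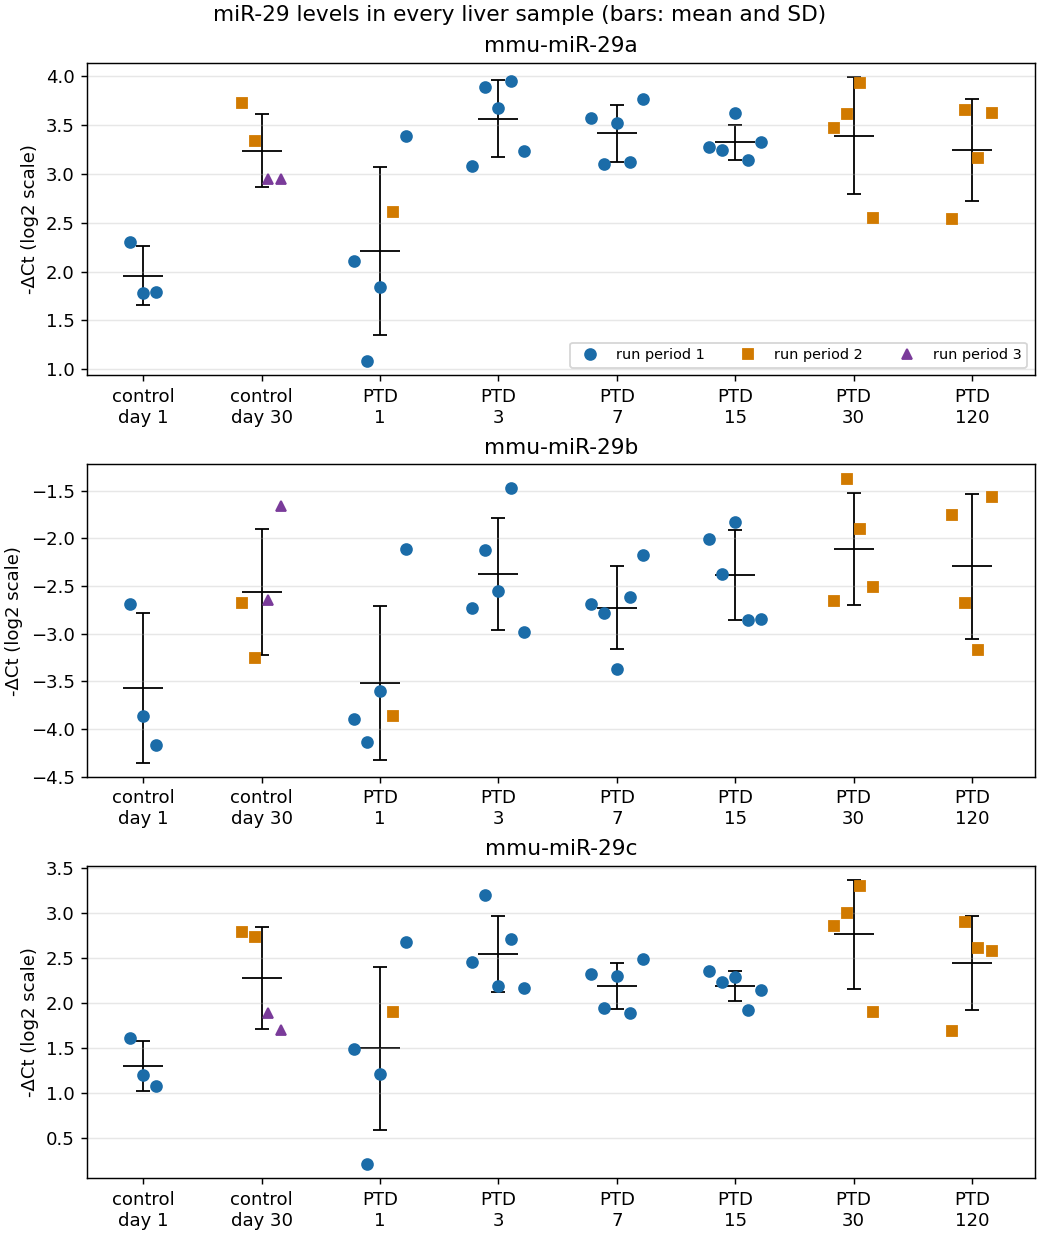
The -ΔCt (log2 scale, y axis) of miR-29a, miR-29b and miR-29c in every liver, by group (x axis: controls by their day label, then ENU mice by PTD). Each point is 1 mouse, marker and colour give the run period, and the bars are mean and SD. The means of the controls labelled day 1 and of the PTD 1 mice are the lowest in all 3 panels, although single PTD 1 mice lie higher, with miR-29a means of 1.96 and 2.21 against 3.24 or more in every other group.

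Ordered by mean, miR-29a was highest at PTD 3 (3.56 ± 0.39, SD, n = 5), followed by PTD 7 (3.41 ± 0.29, n = 5), PTD 30 (3.39 ± 0.60, n = 4), PTD 15 (3.32 ± 0.18, n = 5), PTD 120 (3.24 ± 0.52, n = 4) and the controls labelled day 30 (3.24 ± 0.37, n = 4). Each of these differed from its neighbour in the order by at most 0.15, less than their SD. A gap of 1.03 then separated them from PTD 1 (2.21 ± 0.86, n = 5) and the controls labelled day 1 (1.96 ± 0.30, n = 3). For miR-29b and miR-29c the first place went to PTD 30, with means of -2.11 ± 0.59 and 2.76 ± 0.60 (n = 4), and the last places to the same 2 groups as for miR-29a. The widest gap in the order lay again above PTD 1, at 0.79 for miR-29b and 0.69 for miR-29c, both smaller than the SD at PTD 1 (0.81 and 0.91).

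The study compared each PTD with the 7 controls together, pooled to raise statistical power. Against them, whose means were 2.69 ± 0.75 for miR-29a, -2.99 ± 0.85 for miR-29b and 1.86 ± 0.68 for miR-29c (SD, n = 7), no member passed the limma test at any PTD (adjusted p under 0.05 over all 376 miRNAs). From the first PTD to the last, the test called 0%, 0.798%, 7.45%, 12.2%, 0.532% and 0% of all miRNAs, and 19, 39, 92, 109, 40 and 33 miRNAs had an unadjusted p under 0.05. The methods' t-test, at the study's thresholds for p and fold change, also named no member at any PTD, and named 0.798%, 1.33%, 3.72%, 8.78%, 1.33% and 1.33% of all miRNAs. At PTD 1 the log2 fold changes were -0.48 for miR-29a, -0.53 for miR-29b and -0.36 for miR-29c, beside a median of -0.37 over all miRNAs. Single mice moved these values. With 1 mouse left out, miR-29a ran from -0.78 (without the fifth PTD 1 mouse) to -0.20 (without the second), miR-29c from -0.66 to -0.040 (the same mice), and miR-29b from -0.88 (without the fifth) to -0.31 (without the fourth control labelled day 30). From PTD 3 on all 3 members were above the control mean. These 6 comparisons share the same controls.

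The largest difference for miR-29a was at PTD 3, 0.87 on the log2 scale (SE 0.39, 95% interval 0.03 to 1.71), or 1.83-fold, with an adjusted p of 0.465 in limma and p = 0.0442 in the two-sided exact permutation test. Beside it, miR-29b differed by 0.62 (SE 0.44, interval -0.33 to 1.57) and miR-29c by 0.68 (SE 0.37, interval -0.12 to 1.49), while the median of all miRNAs was 0.02. At PTD 7 the differences were 0.72, 0.27 and 0.33 for miR-29a, miR-29b and miR-29c, against a median of 0.19, and at PTD 15 they were 0.63, 0.61 and 0.33, against 0.36. At PTD 30 miR-29c reached 0.90 (SE 0.42, interval -0.01 to 1.81, adjusted p = 0.435, exact permutation p = 0.0485), with 0.70 for miR-29a and 0.88 for miR-29b, but the median of all miRNAs was 0.54, and within run period 2 the miR-29c difference was -0.0030. At PTD 120 the differences were 0.56, 0.70 and 0.59, against a median of 0.46. PTD 3 was thus the day on which the members stood farthest above the array as a whole. The deposited array of the third PTD 3 mouse holds other Ct values than the study's own ΔCt table. Without it the PTD 3 differences were 0.85, 0.66 and 0.77. Other single mice moved some of these values by more than 1.5 times. miR-29b at PTD 3 ran from 0.39 (without the fourth PTD 3 mouse) to 0.84 and at PTD 120 from 0.46 (without the fourth PTD 120 mouse) to 0.99. Without the third control labelled day 1, miR-29b was 0.07 at PTD 7 and miR-29c was 0.20 at PTDs 7 and 15, while the highest values with a control left out were 0.49 in all 3 cases.

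The 7 controls were not alike. From the controls labelled day 1 to those labelled day 30, miR-29a was higher by 1.28 (SE 0.29, adjusted p = 0.0146 in limma, exact permutation p = 0.0286, the smallest that 4 against 3 mice allow), miR-29b by 1.01 (SE 0.49, adjusted p = 0.13) and miR-29c by 0.98 (SE 0.36, adjusted p = 0.0616). So 1 of the 3 members passed, but the same test called 41% of all 376 miRNAs, and 2 of the 3 members did not overlap between the sets, as did not 47.9% of all miRNAs in that direction. The median of all miRNAs was higher by 1.00. The reference RNAs averaged a Ct of 21.1 to 21.4 in the controls labelled day 1 and 21.7 to 22.3 in those labelled day 30, while the miRNAs of these arrays had a median Ct of 28.8 to 29.2 and 28.7 to 29.3. The part of the reference RNAs in the member differences was not tested.

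The choice of controls moved every member. Against the controls labelled day 1 alone, which shared a run period with PTDs 3, 7 and 15, miR-29a was higher by 1.60, 1.45 and 1.36 at these days, miR-29b by 1.20, 0.84 and 1.19, and miR-29c by 1.24, 0.89 and 0.89. All 5 mice lay above all 3 controls for miR-29a and miR-29c at each of the 3 days (exact permutation p = 0.0179, the smallest that 5 against 3 mice allow). At PTD 3 such a separation held for 20.7% of all miRNAs, at PTD 7 for 35.4% and at PTD 15 for 44.4%. In limma 0 of the 3 members passed at PTD 3 (0.266% of all miRNAs), 2 at PTD 7 (48.4%) and 3 at PTD 15 (53.7%). At PTDs 30 and 120 the same controls gave 3 members (48.9%) and 2 (36.4%). At PTD 1 miR-29a, miR-29b and miR-29c differed from them by 0.25, 0.05 and 0.20 (exact permutation p = 0.643, 0.946 and 0.679). Against the controls labelled day 30 alone, miR-29a differed by 0.33, 0.18 and 0.08 at PTDs 3, 7 and 15 and by 0.15 and 0.01 at PTDs 30 and 120, and by -1.03 at PTD 1 (exact permutation p = 0.0714). From the first PTD to the last, miR-29b differed from them by -0.96, 0.19, -0.17, 0.18, 0.45 and 0.27 and miR-29c by -0.78, 0.27, -0.086, -0.088, 0.48 and 0.17, so that miR-29b at PTD 7 and miR-29c at PTDs 7 and 15 lay below these controls. With these controls no member passed at any PTD, where 0.266%, 1.06%, 6.38%, 5.59%, 0.532% and 0% of all miRNAs did in the order of the days.

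**Figure D2:**
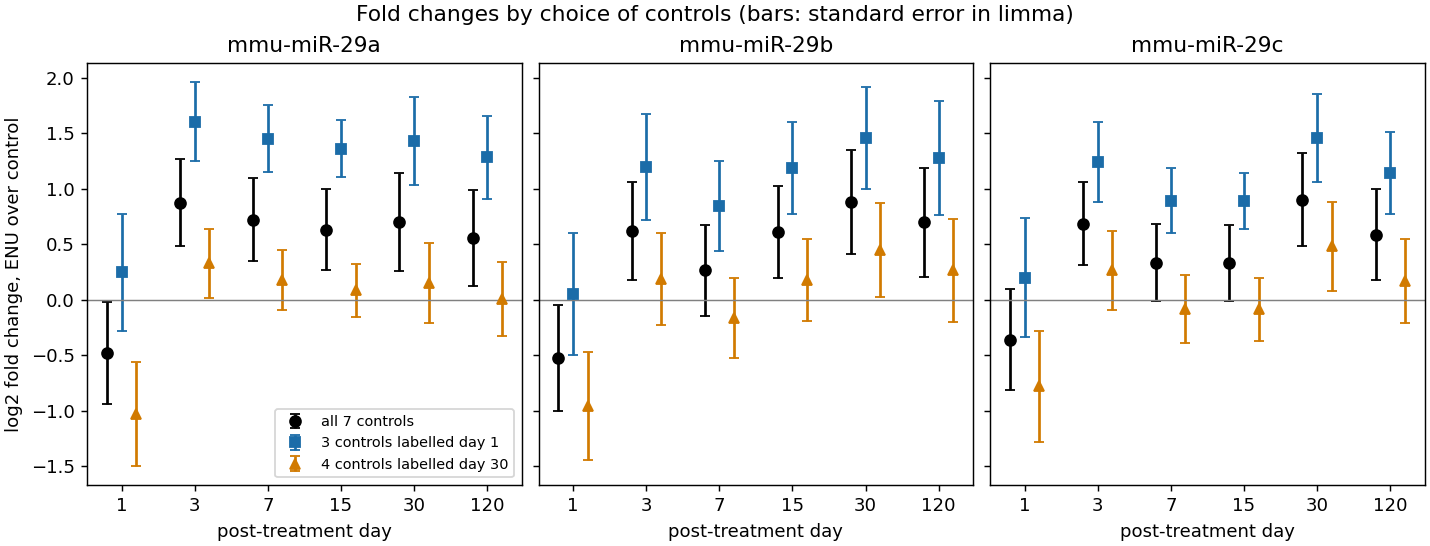
Log2 fold change (y axis) of each member at each PTD (x axis) in limma, against all 7 controls (circles), the 3 labelled day 1 (squares) and the 4 labelled day 30 (triangles), with bars for the standard error. For miR-29a at PTD 3 the values are 0.87, 1.60 and 0.33, and from PTD 3 on the squares lie highest in each panel.

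Run period could be taken into account only in part, since the control sets share none. Within run period 1, the 4 PTD 1 mice of that period differed from the controls by 0.15, 0.14 and 0.10 for miR-29a, miR-29b and miR-29c (exact permutation p = 0.771, 0.857 and 0.8). In a single fit of all 35 arrays with run period as a term, miR-29a was higher by 1.43 at PTD 3 (SE 0.36, adjusted p = 0.0191 in limma) and miR-29c by 1.09 (SE 0.37, adjusted p = 0.0419), so 2 of 3 members passed where 14.9% of all miRNAs did. At PTDs 7 and 15 only miR-29a passed in that fit, among 41.5% and 47.3% of all miRNAs. Its run period term rests on the 2 control sets and on PTD 1, the only ENU group run in different periods. The fit is thus no separate check on the controls labelled day 1, against which PTD 3 gave 1.60 for miR-29a and 1.24 for miR-29c. Within run period 2, where only 2 controls were run, miR-29a differed by -0.14 at PTD 30 and by -0.28 at PTD 120, and miR-29b by 0.85 and 0.67, while miR-29c differed by -0.0030 (exact permutation p = 1) and -0.32 (exact permutation p = 0.533). The PTD 3 mice fell on both sides of a split between early and late arrays of run period 1, described below. Against the controls labelled day 1, miR-29a was higher by 1.52 in the 2 early PTD 3 arrays and by 1.66 in the 3 late ones, miR-29b by 1.14 and 1.23, and miR-29c by 1.53 and 1.05, a comparison chosen after the values were seen.

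The step from PTD 1 to PTD 3 needs no controls, but its 2 groups were run apart. In run order the PTD 1 arrays were numbers 4 to 7 and 23, and the PTD 3 arrays were 8 to 12. Day and run order can therefore not be told apart in this step. Between these groups of 5 ENU mice the mean -ΔCt of miR-29a went from 2.21 ± 0.86 to 3.56 ± 0.39, a difference of 1.36 (SE 0.45, interval 0.39 to 2.32), or 2.56-fold. miR-29b differed by 1.15 (SE 0.46) and miR-29c by 1.05 (SE 0.46). The exact permutation p values were 0.0238, 0.0476 and 0.0397, and all 3 adjusted p values in limma were 0.311, so none passed over all miRNAs. The test called 0 of the 376 miRNAs here, with 56 at an unadjusted p under 0.05, and the median of all miRNAs was 0.47. The median over the 4 hepatocyte miRNAs was 0.96 in this comparison and that over the 2 endothelial ones 1.03. It was 0.89 over the 6 blood and immune miRNAs, 0.61 over the 4 stromal ones, 1.33 over the 4 muscle ones, 0.0039 over the 2 erythroid ones and -0.97 over the 3 pancreas ones, the neuron marker differed by 0.075, and the 8 other p53-linked miRNAs described below had 1.13. None of these miRNAs passed, and the lists share members, with miR-192 and miR-194 on both the hepatocyte and the p53-linked list. The part of these cell types in the step was not tested. With the 4 PTD 1 mice of run period 1 alone, a choice made after the values were seen, the differences were 1.46, 1.06 and 1.14 (exact permutation p = 0.0238, 0.0873 and 0.0556). The groups overlapped for each member through the fifth PTD 1 mouse.

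No comparable step followed. From PTD 3 to PTD 7 the members differed by -0.15, -0.35 and -0.35, from PTD 7 to PTD 15 by -0.09, 0.34 and -0.0016, from PTD 15 to PTD 30 by 0.07, 0.27 and 0.57, and from PTD 30 to PTD 120 by -0.15, -0.18 and -0.32 (miR-29a, miR-29b and miR-29c in each case). No member passed in any of these 4 comparisons, which called 0%, 0%, 19.9% and 0% of all miRNAs. The intervals for miR-29a ran from -0.78 to 0.48, from -0.60 to 0.41, from -0.64 to 0.78 and from -1.02 to 0.73, so changes of up to that size are not shut out. PTDs 15 and 30 were run in different periods. These small differences turned on single mice. With 1 mouse left out, PTD 7 against PTD 3 ran from -0.27 to -0.056 for miR-29a, from -0.50 to -0.13 for miR-29b and from -0.45 to -0.19 for miR-29c, and PTD 15 against PTD 7 from -0.17 to -0.0035 for miR-29a and from 0.18 to 0.48 for miR-29b. PTD 30 against PTD 15 ran from 0.024 (without the second PTD 30 mouse) to 0.45 for miR-29b and from 0.39 to 0.86 (without the fourth) for miR-29c. PTD 120 against PTD 30 ran from -0.60 (without the fourth PTD 30 mouse) to -0.066 (without the first PTD 120 mouse) for miR-29c. Other values changed direction: PTD 15 against PTD 7 ran from -0.076 to 0.073 for miR-29c (without the fourth or the fifth PTD 7 mouse), and PTD 30 against PTD 15 from -0.11 (without the third PTD 30 mouse) to 0.35 (without the fourth) for miR-29a. PTD 120 against PTD 30 ran from -0.43 (without the fourth PTD 30 mouse) to 0.091 (without the first PTD 120 mouse) for miR-29a and from -0.42 to 0.11 (without the fourth or the third PTD 120 mouse) for miR-29b. With the median Ct of the array as reference, PTD 30 against PTD 15 gave -0.37 for miR-29a, -0.17 for miR-29b and 0.13 for miR-29c. PTD 15 against PTD 7 gave -0.36, 0.07 and -0.27 on that scale. PTD 7 against PTD 3 gave -0.15, -0.35 and -0.35, with an exact permutation p of 0.0317 for miR-29c, not adjusted.

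When the median Ct of all miRNAs on an array took the place of its reference RNAs, the controls drew together. From the controls labelled day 1 to those labelled day 30 the differences were 0.37, 0.10 and 0.07, and no member passed, as 0.532% of all miRNAs did. On this scale PTD 3 was higher than the 7 controls by 1.17 for miR-29a, 0.91 for miR-29b and 0.98 for miR-29c (exact permutation p = 0.00379, 0.0581 and 0.00505), with adjusted p values of 0.093, 0.217 and 0.093 in limma, so no member passed where 0.798% of all miRNAs did. Against the controls labelled day 30 alone the PTD 3 differences stayed at 1.01, 0.87 and 0.95, and against those labelled day 1 at 1.38, 0.97 and 1.02, both also chosen after the values were seen. At PTD 7 miR-29a was higher by 1.02 (SE 0.25) and passed (adjusted p = 0.00848), where 35.9% of all miRNAs did. At PTD 1 the differences were -0.11, -0.16 and 0.01, at PTD 15 they were 0.66, 0.64 and 0.36, and at PTD 120 they were 0.14, 0.28 and 0.17. At PTD 30 they were 0.29, 0.47 and 0.49 against a median of 0.13 over all miRNAs, and the exact permutation p of miR-29c there, 0.0485 with the reference RNAs, was 0.115. The step from PTD 1 to PTD 3 was 1.28, 1.07 and 0.97 on this scale (exact permutation p = 0.0238, 0.0317 and 0.0238).

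**Figure D3:**
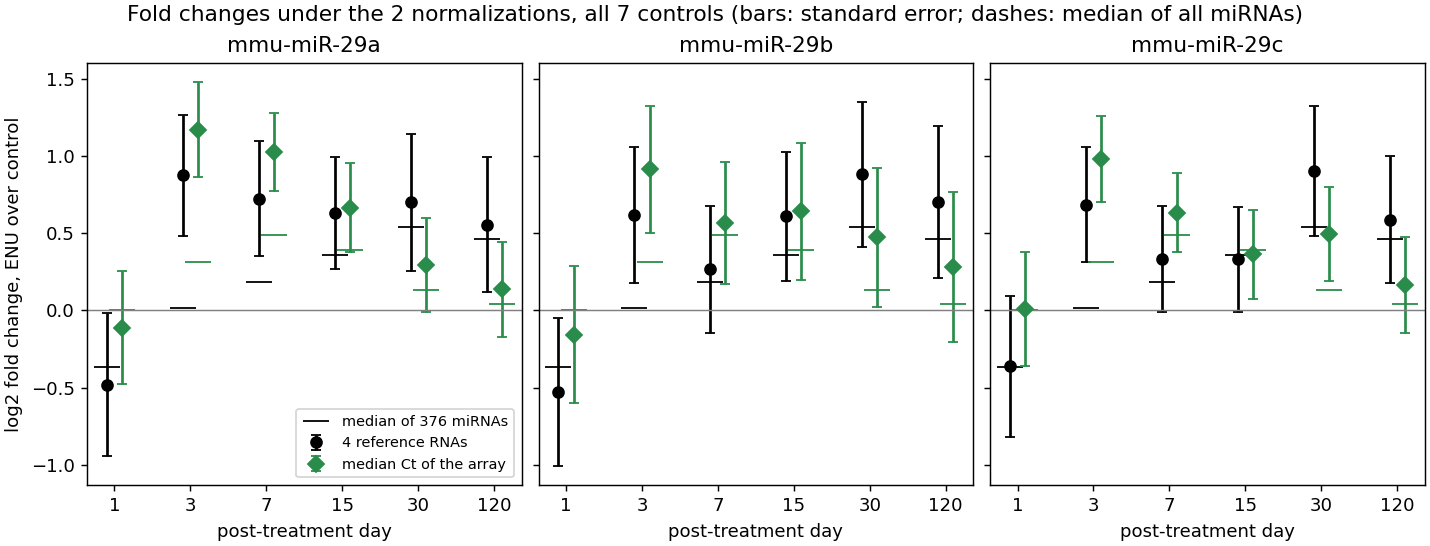
Log2 fold change (y axis) of each member at each PTD (x axis) against all 7 controls, normalized to the 4 reference RNAs (circles) or to the median Ct of the array (diamonds). Bars are standard errors and short dashes the median of all 376 miRNAs. At PTD 3 miR-29a lies at 0.87 and 1.17, above medians of 0.02 and 0.31, and at PTD 120 the diamonds of miR-29a and miR-29c lie near 0.

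The difference between 2 members within an array needs no reference RNA. The Ct of miR-29c minus that of miR-29a was 1.22 ± 0.05 at PTD 7 (SD, n = 5) against 0.83 ± 0.26 in the controls (n = 7), a difference of 0.39 (exact permutation p = 0.0152). At PTDs 1, 3, 15, 30 and 120 it differed from the controls by -0.12, 0.19, 0.30, -0.20 and -0.03 (exact permutation p = 0.342, 0.295, 0.0518, 0.158 and 0.845). The PTD 15 value lay at the threshold and turned on the controls. It was 0.47 against the controls labelled day 1 alone (exact permutation p = 0.0179) and 0.17 against those labelled day 30 (exact permutation p = 0.294). It also had an exact permutation p under the threshold without the first PTD 15 mouse (0.35), the third control labelled day 30 (0.34) or the fourth (0.37). With 1 mouse left out the other differences ran from -0.16 to -0.052 at PTD 1, from 0.074 to 0.29 at PTD 3 and from -0.24 to -0.13 at PTD 30. These 6 values belong to a family of 18 within-array tests, and the p values are not adjusted. The within-array gap moved with the order of the runs and with the reverse transcription control wells of the arrays. In the first 9 arrays of run period 1, which hold controls, PTD 1 and 2 PTD 3 mice, it was 0.57 to 0.87, and in the later 13, of PTDs 3, 7 and 15, it was 0.93 to 1.48. It was 1.06 and 1.25 in the 2 controls of run period 3. The 12 arrays in which the difference between the 2 kinds of control wells was above 0 had gaps of 1.06 to 1.48, and the 23 in which it was below 0 had 0.56 to 1.27. Their part in the PTD 7 difference was not tested. The gaps to miR-29b, which take in its wider scatter, gave an exact permutation p of 0.245 or more at every PTD.

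**Figure D4:**
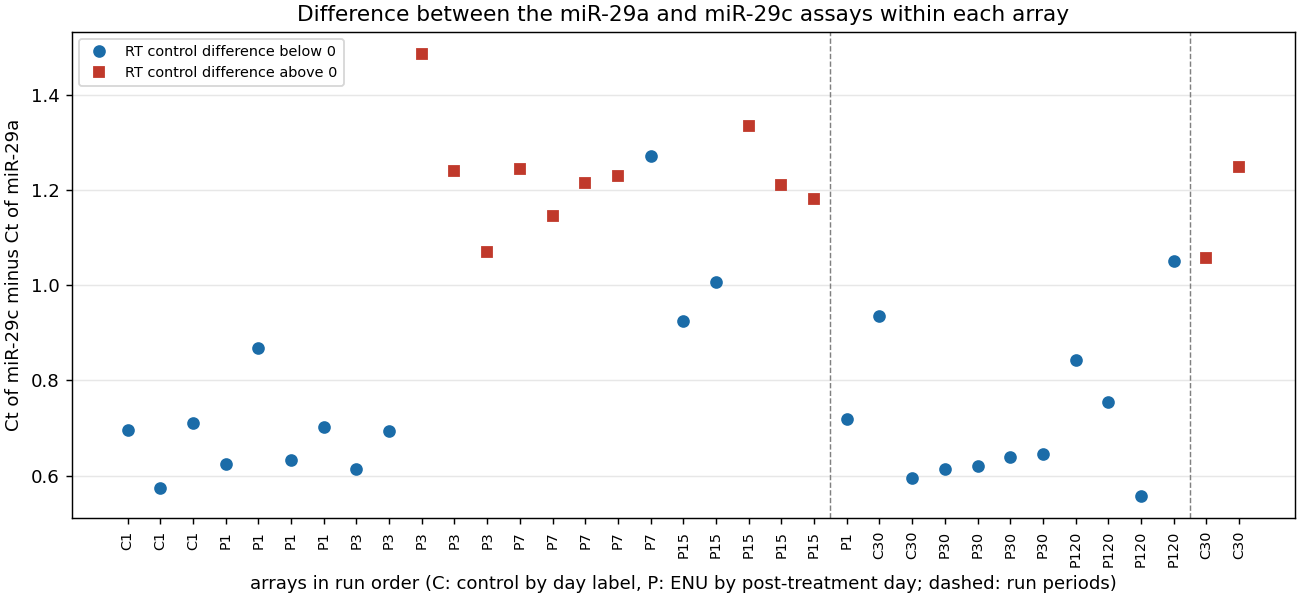
Ct of miR-29c minus Ct of miR-29a (cycles, y axis) in each of the 35 arrays in run order (x axis, C for controls by day label, P for ENU mice by PTD), with dashed lines between run periods. Squares mark the 12 arrays whose reverse transcription control difference was above 0, at 1.06 or more, and circles the others, most of them lower, with a median of 0.70.

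Across the 35 livers miR-29a and miR-29c went together most closely. Pearson's r between their -ΔCt values was 0.919, while miR-29b had 0.694 with miR-29a and 0.617 with miR-29c. With each group's mean taken out, the 7 controls being 1 group, r for miR-29a and miR-29c was 0.934, and with the median Ct as the reference it was 0.907. These are descriptions, since all values of an array share its reference RNAs and its RNA input. miR-29a and miR-29c come from different chromosomes, and the highest r was not that of a gene pair. They also differ by a single base, and cross-reaction between their assays was not tested. The miR-29b assay takes in 2 genes and was the most scattered. The r values therefore describe the wells and not the genes.

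The 5 miRNAs whose -ΔCt was most like that of the family, by the mean r with the 3 members over the 35 arrays among 198 other assays with a mean Ct of at most 30 and a value in every array, were let-7i (0.840), miR-362-3p (0.836), miR-15a (0.834), miR-497 (0.811) and miR-324-5p (0.805). The median over the candidates was 0.557. With the median Ct as reference the 5 had mean r values of 0.802, 0.781, 0.812, 0.763 and 0.759, against a median of 0.423. The fifth place and the order depended on the measure. With group means taken out the 5 had 0.803, 0.802, 0.837, 0.792 and 0.751, against a median of 0.524, so miR-15a came first and miR-186, at 0.773, took the place of miR-324-5p. With the median Ct it was miR-101b, at 0.761, that took it, again with miR-15a first. The other 4 were among the first 5 each time. The mature sequences of the 5 from RefSeq, with the seed in capitals, are given to show that none holds the miR-29 seed, while miR-15a and miR-497 share one with each other:
mmu-let-7i: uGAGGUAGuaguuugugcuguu
mmu-miR-362-3p: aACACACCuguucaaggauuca
mmu-miR-15a: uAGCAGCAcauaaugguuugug
mmu-miR-497: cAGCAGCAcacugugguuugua
mmu-miR-324-5p: cGCAUCCCcuagggcauuggugu

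Beside the family stood 8 other miRNAs linked to p53. From the first PTD to the last, 0, 3, 2, 4, 2 and 0 of them were higher than the controls at the same threshold, and none was lower, where 0%, 0.798%, 1.6%, 7.71%, 0.532% and 0% of all miRNAs were higher. The calls were mostly of miR-34a, miR-34b-5p and miR-34c, of a family of direct p53 targets. At PTD 3 they were higher by 2.51 (SE 0.34, adjusted p = 0.00149 in limma), 2.34 and 1.87, each more than the 0.87 of miR-29a. Another miR-34 assay of the list, miR-34b-3p, differed by -0.71 at PTD 3 (SE 0.39) and passed at no PTD. The median over the 8 was 0.38 at PTD 3, beside 0.02 over all miRNAs. At PTD 15 miR-107 also passed, at 0.79. Between the control sets, where miR-29a differed by 1.28, the differences were -0.33 for miR-34a, 0.12 for miR-34b-5p and 0.22 for miR-34c, and none of these passed. Of the other 5 p53-linked miRNAs, 3 did pass between the control sets, where 41% of all miRNAs were called: miR-192 was higher by 1.52 (adjusted p = 0.00722 in limma), miR-194 by 1.66 (adjusted p = 0.00848) and miR-215 by 2.45 (adjusted p = 0.00707). The lists of this report overlap and are not independent. miR-192 and miR-194 are also on the hepatocyte list, and miR-194 and miR-122 are on both the hepatocyte and the anti-fibrotic list.

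Of 8 other miRNAs known as anti-fibrotic, 1 was higher at PTD 7, where 1.6% of all miRNAs were, and 2 at PTD 15, where 7.71% were, and none at the other days. miR-335-5p was higher by 1.06 at PTD 7 and by 1.49 at PTD 15, and miR-30c by 0.77 at PTD 15. Of 10 known as pro-fibrotic, 1 was higher at PTD 7 and 1 at PTD 15, in both cases miR-222, by 1.34 and 1.69, beside the same shares of all miRNAs. The medians of the anti-fibrotic list were -0.66, 0.22, 0.36, 0.29, 0.49 and 0.50 over the 6 PTDs, and those of the pro-fibrotic list -0.32, 0.25, 0.35, 0.63, 0.47 and 0.35, each beside the medians of all miRNAs given above. miR-21, the pro-fibrotic miRNA with the lowest mean Ct here, did not pass at any PTD.

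The cell type lists gave a single call against the controls, miR-144 of the 2 erythroid miRNAs at PTD 15 (1.52, adjusted p = 0.0162 in limma), a day on which 7.71% of all miRNAs were higher. None of the 4 hepatocyte, 6 blood and immune, 2 endothelial or 4 stromal miRNAs passed, nor any muscle, pancreas or neuron marker, at any PTD. Between the control sets, where miR-29a was also called, 40.7% of all miRNAs were higher in those labelled day 30, and so were 4 of the 4 hepatocyte, 2 of the 2 endothelial, 4 of the 6 blood and immune, 2 of the 4 stromal and 1 of the 2 erythroid miRNAs. The medians were 1.59 for the hepatocyte and 1.64 for the endothelial list, beside 1.00 over all miRNAs. Of the muscle, pancreas and neuron markers, 0 of 4, 1 of 3 and 1 of 1 were higher. The summed level of the hepatocyte list, in multiples of the reference RNAs, was 139 to 191 in the controls labelled day 1 and 380 to 447 in those labelled day 30. In the ENU mice it was 89.5 to 256 at PTD 1, 160 to 393 at PTD 3 and 183 to 463 at PTD 7. It was 80.2 to 570.0 at PTD 15, 272 to 527 at PTD 30 and 313 to 494 at PTD 120. The lowest sum of all was that of a PTD 15 mouse. Such a sum is weighted towards miR-122, whose mean Ct of 14.5 lay below the 16.8 to 17.7 of the others. At PTD 15 miR-122 differed from the controls by -0.58 (SE 0.76), while miR-192, miR-194 and miR-148a differed by 0.48, 0.20 and 0.48. A low sum need therefore not be low for the whole list. The endothelial list ran from 8.06 to 15.4 in the controls labelled day 1, 28.0 to 40.8 in those labelled day 30, 4.80 to 22.2 at PTD 1 and 16.4 to 30.6 at PTD 3, and its lowest and highest sums at the later days were 14.8 and 51.5. Their part in the levels of the family was not tested.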

How the data were processed

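The authors deposited, per the file headers, the Ct of every well of each 384-well array, set by the instrument software at a fixed threshold and not normalized. A Ct is a cycle number and no count, so no depth applies and the number of mice limits the precision. The 15 Undetermined wells, none of a member, were set to missing. ΔCt was taken against the mean Ct of the 4 reference RNAs, as in the study. Groups came from the labels. Run periods are stretches of runs more than 14 days apart. Each PTD was compared with the 7 controls, and with the PTD before, in limma (version 3.58.1, R version 4.3.3), 1 fit over all 376 miRNAs per comparison, with Benjamini-Hochberg adjustment, and the test was tested on simulated data. Single members were also tested by two-sided exact permutation tests, whose p values are not adjusted. Named were the 3 members, the 5 most similar miRNAs among assays with a mean Ct of at most 30, list members that passed and, outside that rule, miR-21, miR-122, miR-101b, miR-186, miR-34b-3p and the control values of the miR-34 miRNAs. The members and lists were chosen with earlier results of these data known. Same-numbered mice are different animals. Alternatives changed the controls, reference RNAs, normalization, covariates, filter, Undetermined wells and mice. Figures used Python (version 3.11.15) and matplotlib (version 3.10.9).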

Additional observations from a re-analysis of the deposited data

Results flagged for a closer look

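The miR-29b level of the fifth PTD 1 mouse, a -ΔCt of -2.11, lay far above the other 4 mice of its group. The next highest was -3.60 and the lowest -4.14, and the gap was 0.734 of the whole range. The same mouse had the highest PTD 1 levels of miR-29a and miR-29c, 3.38 and 2.68. It was the only value to stand out among 42 group and measure combinations examined in this way, of which chance alone gives about 1 in 20.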

How the results depend on the processing

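The number of members called against the controls was 0 at every PTD and stayed at 0 at PTD 1 under every alternative run. Taking the controls labelled day 1 alone, it was 2, 3, 3 and 2 from PTD 7 to PTD 120, where 48.4%, 53.7%, 48.9% and 36.4% of all miRNAs were called, and within the same run period, whose controls are the same at these days, 2 at PTD 7 and 3 at PTD 15. A single fit with run period called 2 members at PTD 3, 1 at PTD 7 and 1 at PTD 15, among 14.9%, 41.5% and 47.3% of all miRNAs. Using the median Ct it was 1 at PTD 7 (35.9% of all miRNAs), and also 1 there with the controls labelled day 1 (50.3%) or day 30 (32.4%), a choice made after seeing the data. From PTD 15 to PTD 30 it was 0 or 1 with a mouse left out, and 1 (miR-29c, at 0.86) without the fourth PTD 30 mouse, where 18.1% of all miRNAs were called. Between the control sets, 1 member was called (41% of all miRNAs), 0 with the median Ct (0.532%), 1 to 2 with a mouse left out (24.5% to 44.1%), and 2 without the fourth control labelled day 30 (31.4%). Same-numbered mice are different animals. The correlations of their deviations ran from -0.190 (number 1, PTD 30) to 0.519 (number 4, PTD 1). At PTD 3 they were 0.321, 0.418, 0.0623 and 0.488. They were not over 0.1 throughout, so the mice were not paired. With the replicate number as a block, 2 members were called between the control sets (32.7% of all miRNAs) and 0 in all other comparisons. The fourth control labelled day 30 has no partner in that fit, so the member differences are those without it. Leaving out reference RNAs, mice or dim assays, the Undetermined wells at the last cycle and the study's thresholds called no member against the controls.

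Directions changed under several settings, also for differences as large as the 0.70 of miR-29a and the 0.90 of miR-29c at PTD 30. Taking the controls labelled day 1 alone, PTD 1 gave 0.25 for miR-29a, 0.050 for miR-29b and 0.20 for miR-29c, and with the median Ct as well 0.10 for miR-29a and 0.052 for miR-29c (chosen after seeing the data). With only those labelled day 30, PTD 7 gave -0.17 for miR-29b and -0.086 for miR-29c, and PTD 15 gave -0.088 for miR-29c. With the median Ct, miR-29c was 0.010 at PTD 1, miR-29a was -0.023 at PTD 120 with the controls labelled day 30, and PTD 30 against PTD 15 gave -0.37 for miR-29a and -0.17 for miR-29b. Within the same run period PTD 30 gave -0.14 for miR-29a and -0.0030 for miR-29c, and PTD 120 gave -0.28 and -0.32. In the single fit with run period PTD 120 gave -0.029 and -0.087, and with the reverse transcription control difference as a covariate miR-29b was -0.0579 at PTD 7.

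With a mouse left out, PTD 15 against PTD 7 ran from -0.076 to 0.073 for miR-29c, PTD 30 against PTD 15 from -0.11 to 0.35 for miR-29a, and PTD 120 against PTD 30 from -0.43 to 0.091 for miR-29a and from -0.42 to 0.11 for miR-29b. The within-array gap of miR-29a to miR-29c ran from -0.11 to 0.052 at PTD 120. The gap of miR-29b to miR-29a ran from -0.20 to 0.14 at PTD 1, from -0.17 to 0.16 at PTD 15 and from -0.27 to 0.41 at PTD 120. That of miR-29b to miR-29c ran from -0.36 to 0.083 at PTD 1, from -0.26 to 0.18 at PTD 3, from -0.26 to 0.18 at PTD 7, from -0.21 to 0.23 at PTD 30 and from -0.31 to 0.46 at PTD 120. Against the controls labelled day 1 alone the gap of miR-29a to miR-29c was 0.050 (PTD 1) and 0.14 (PTD 120), and the gap of miR-29b to miR-29a was -0.00916 (PTD 120). Against those labelled day 30 the latter was 0.070 (PTD 1) and 0.092 (PTD 15). The cause of these changes was not tested.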
